A study of Mus musculus with 2 samples.

Results

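Small nucleolar RNA host genes are genes whose introns carry small nucleolar RNAs (snoRNAs). The genes described here were 10 listed by symbol, and a gene entered when its identifier, without the version, carried that symbol in the GENCODE mouse annotation and had a row in both gene tables. Of the 10 symbols, 7 had a row among the 43346 genes of each table: Gas5, Snhg3, Snhg5, Snhg6, Snhg11, Snhg12 and Snhg18. The identifiers of Snhg1 and Snhg8 had no row and Snhg4 had no entry under that symbol in the annotation used, so their own levels were not analysed here. The data were total RNA libraries from hearts of healthy mice with the strain label B6NTac;B6NCrl/Lap, collected on the day of birth (age 0 days) with both sexes pooled. There was 1 group with 2 biological replicates from separate tissue isolates, replicate 1 from 15 mice and replicate 2 from a pool of unstated size. RNA above 200 nucleotides was depleted of ribosomal RNA and read as stranded pairs, per the labels. With 1 group there was no test of a condition, and every comparison between replicates is a description of these libraries.

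A snoRNA guides the chemical modification of ribosomal and other RNAs by pairing with its target, in a particle with a fixed set of proteins. Box C/D snoRNAs guide ribose methylation and box H/ACA snoRNAs guide pseudouridylation. In mammals most are released from the intron of a host transcript after splicing. In several hosts the spliced exons that remain are a long noncoding RNA whose 5′ end is a run of pyrimidines. This RNA is read by ribosomes and removed by nonsense-mediated decay. Gas5 was named for its accumulation in growth-arrested cells, and its spliced exons are also studied as a regulatory RNA.

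The snoRNAs these genes carry are shown first, because they are what defines a host gene. Within the spans of the 10 hosts lay 32 snoRNA loci of GENCODE M21, with overlapping entries counted as 1 locus. These loci were matched to the strand of the host, except in Snhg4, whose span was taken from RefSeq without a strand. There were 9 in Gas5, 8 in Snhg1, 4 in Snhg12, 2 each in Snhg3, Snhg4, Snhg5 and Snhg11, and 1 each in Snhg6, Snhg8 and Snhg18. Each sequence below runs 5′ to 3′ from the GENCODE transcripts on GRCm38. In the C/D snoRNAs the capitals mark the box C letters TGATGA, searched in the first 20 bases, and the box D letters CTGA, searched in the last 20. In the H/ACA snoRNAs they mark ACA 3 bases before the 3′ end. Snord47 lies in Gas5 (chr1:161038082-161038158, plus strand), Snord50a and Snord50b in Snhg5 (chr9:88521529-88521600 and chr9:88521797-88521868, minus strand), Snord87 in Snhg6 (chr1:9942463-9942549, minus strand), Snord99 in Snhg12 (chr4:132310691-132310764, plus strand) and Snord123 in Snhg18 (chr15:32241853-32241923, minus strand).
Snord47: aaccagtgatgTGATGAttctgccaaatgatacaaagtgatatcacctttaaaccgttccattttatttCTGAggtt
Snord50a: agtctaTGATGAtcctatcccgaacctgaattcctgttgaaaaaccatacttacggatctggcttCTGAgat
Snord50b: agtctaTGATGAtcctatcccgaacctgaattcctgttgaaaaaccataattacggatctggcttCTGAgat
Snord87: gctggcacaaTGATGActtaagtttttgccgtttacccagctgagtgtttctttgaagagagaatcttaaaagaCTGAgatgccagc
Snord99: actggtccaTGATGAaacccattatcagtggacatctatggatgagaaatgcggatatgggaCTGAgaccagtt
Snord123: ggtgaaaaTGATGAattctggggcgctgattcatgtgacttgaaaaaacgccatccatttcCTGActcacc
The pair in Snhg5 differed at 1 of 72 positions, C50A, counted from 1 at the 5′ end with the Snord50a base first.

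The 2 snoRNAs of Snhg3 are the 205-nucleotide H/ACA RNAs Snora73a and Snora73b, known as U17, which act in the processing of ribosomal RNA precursors. They are shown because they were the only snoRNAs inside the 7 hosts with any counted read. Snora73a lies at chr4:132352775-132352979 and Snora73b at chr4:132352322-132352526, both on the minus strand.
Snora73a: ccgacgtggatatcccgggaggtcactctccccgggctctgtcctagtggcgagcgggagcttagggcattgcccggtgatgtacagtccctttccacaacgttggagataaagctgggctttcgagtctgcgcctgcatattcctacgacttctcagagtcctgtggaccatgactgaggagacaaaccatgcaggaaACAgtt
Snora73b: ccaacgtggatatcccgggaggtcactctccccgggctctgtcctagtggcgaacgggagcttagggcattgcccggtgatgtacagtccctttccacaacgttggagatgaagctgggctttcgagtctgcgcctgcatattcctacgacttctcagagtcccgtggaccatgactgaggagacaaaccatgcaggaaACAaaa
They matched at 198 of 205 positions (96.6%), with the Snora73a base first G3A, G54A, A111G, T164C, G203A, T204A and T205A. The expected counts of both were whole numbers in both replicates, with no fractional share, and how reads were divided between the pair was not tested.

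The box letters and the position in the intron were then compared across all snoRNA genes of the annotation. Both C/D boxes matched in 17 of the 32 host loci (53.1%), near the 49.2% of 122 other snoRNA genes with a Snord or Snora symbol. The ACA letters matched in 5 of the 32 (15.6%) and in 23.8% of those genes. Over all 1524 other snoRNA genes, named or not, the shares were 19.4% and 19.1%. No match in the other 10 loci says only that these exact letters were not in the windows searched: Snord78 in Gas5, for example, is a named C/D snoRNA. Each snoRNA was placed in the shortest intron that holds it in a same-strand GENCODE transcript, of the host or another gene. The distance from the 3′ end of the snoRNA to the next 3′ splice site had a median of 75 nucleotides over the 17 C/D loci, with a range of 65 to 313. For the 5 H/ACA loci the median was 78, with a range of 74 to 237. A window of 60 to 90 nucleotides, drawn after the distances were seen, held 23 of the 32 host loci (71.9%), against 37 of the 114 other snoRNA genes with such a symbol that lie in an intron (32.5%). The loci outside it included both in Snhg11, at 1104 and 2416 nucleotides, and Snord80 in Gas5, at 313.

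**Figure D1:**
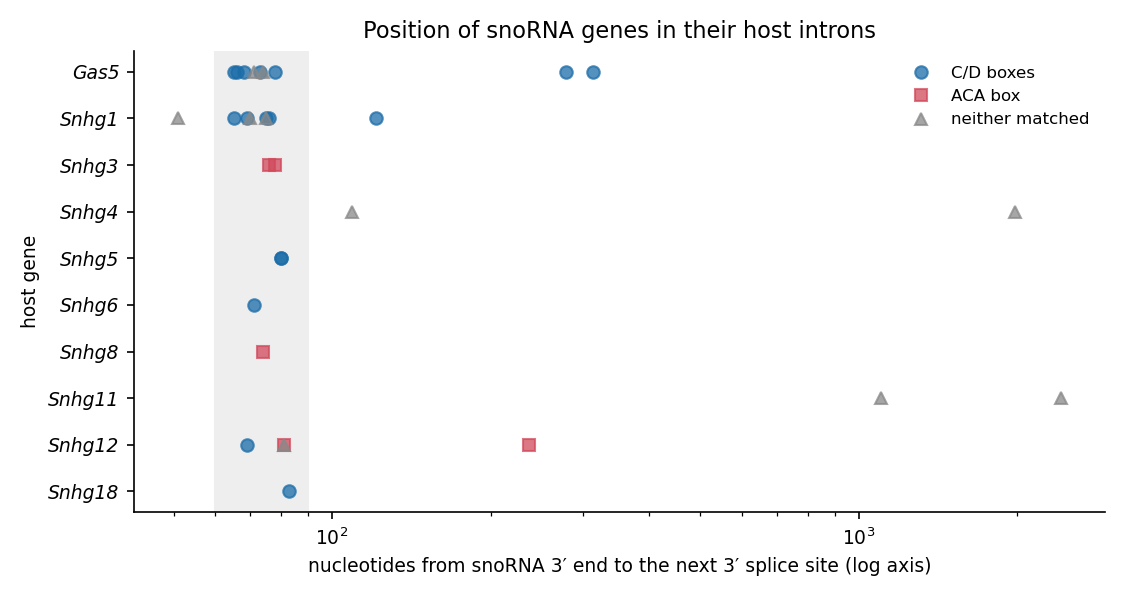
Distance in nucleotides (log axis) from the 3′ end of each snoRNA gene to the next 3′ splice site, by host gene, with points marked by the box letters found. The site is that of the shortest intron holding the snoRNA in a same-strand GENCODE transcript. Snhg4 had no entry there under that symbol, so its loci use a transcript of another name. The grey band is 60 to 90 nucleotides and holds 23 of the 32 loci, while both loci of Snhg11 lie at 1104 and 2416.

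As background for the libraries, expected counts summed over genes to 69946215 in replicate 1 and 73615802 in replicate 2. All 7 cardiomyocyte, 6 fibroblast and 5 endothelial markers and 5 of 6 erythroid markers were detected, with a median of 1390 TPM over the cardiomyocyte list, while none of 12 neuronal markers was, and Snap25 and Syt1 had 0 counts in both replicates. Markers of some other cell types differed between the replicates. The 6 urothelial markers summed to 5.41 and 82.8 TPM in replicates 1 and 2 (Krt20 at 0 counts in both), the 4 smooth muscle markers to 306 and 629 TPM, and the 8 lymphocyte and thymus markers to 5.60 and 0.01 TPM (Cd3e and Dntt at 0 counts in both). The 4 Schwann cell markers summed to 1.05 and 2.46 TPM. Their part in the differences described below was not tested.

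Of the 7 host genes, 6 reached 1 TPM in each replicate, a level called detected here. TPM is an abundance divided by the effective length of the transcripts and scaled to a fixed total. The same was true of 24.2% of all genes and of 2.65% of the 5694 genes with a long noncoding biotype, the class of all 6 detected hosts. The hosts are named, well-studied genes, so that share is a setting and not a comparison of like with like. Together the 7 summed to 56.2 and 100.2 TPM in replicates 1 and 2, or 78.2 ± 31.1 (SD, n = 2). With TPM rescaled over protein-coding and long noncoding nuclear genes the mean sum was 289.9. In bulk tissue fewer cells that express a gene and less RNA per cell cannot be told apart.

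Snhg3, the U17 host, had the highest mean, with 17.7 and 29.2 TPM in replicates 1 and 2 from 277 and 482 expected counts. Snhg12, which carries Snora16a, Snora44, Snora61 and Snord99, followed with 4.29 and 32.6 TPM from 175 and 597 counts. Replicate 2 was the higher for both. The pair are neighbours on chromosome 4, Snhg12 at 132308623 to 132311024 on the plus strand and Snhg3 at 132348014 to 132353686 on the minus strand, 37.0 kb apart. Snhg3 shares 135 exonic bases on the same strand with Rcc1, a nuclear exchange factor with 1080 and 1200 counts. The expected counts of both genes were whole numbers, and how reads in the shared bases were assigned was not tested.

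Gas5, at chr1:161034422-161038539 on the plus strand, had 12.9 and 13.2 TPM in replicates 1 and 2, from 808 and 729 expected counts, the most reads of any host. Snhg6, at chr1:9941959-9944118 on the minus strand, had 6.49 and 13.6 TPM from 147 and 219 counts, and overlaps 127 exonic bases of Mcmdc2 on the opposite strand (47 and 3 counts). Gas5 was level between the replicates and Snhg6 was higher in replicate 2. Snhg5, at chr9:88521050-88522929 on the minus strand, had 10.5 and 7.19 TPM from 613 and 516 counts and was the only one of the 6 detected hosts whose TPM was higher in replicate 1. Snhg18, at chr15:32240565-32244662 on the minus strand, had 4.14 and 4.27 TPM from 521 and 565 counts. Its single annotated transcript gave nearly equal values in the replicates. Snhg11, at chr2:158375638-158386145 on the plus strand and annotated as protein-coding, had 0.15 and 0.20 TPM from 17 and 123 counts. It was below the detection limit in both replicates, in a tissue where none of the 12 neuronal markers was detected.

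By mean TPM the order was Snhg3 (23.5 ± 8.13, SD, n = 2), Snhg12 (18.4 ± 19.98), Gas5 (13.0 ± 0.156), Snhg6 (10.1 ± 5.03), Snhg5 (8.85 ± 2.35), Snhg18 (4.21 ± 0.0919) and Snhg11 (0.175 ± 0.0354). The ranges of the replicates overlapped for Snhg3 and Snhg12, for Snhg12 and Gas5, for Gas5 and Snhg6, and for Snhg6 and Snhg5, so the order within these pairs was within their spread. The wide range of Snhg12 also held those of Snhg6 and Snhg5. The ranges of Snhg5, Snhg18 and Snhg11 did not overlap, nor did those of Gas5 and Snhg3 or of Gas5 and Snhg5.

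**Figure D2:**
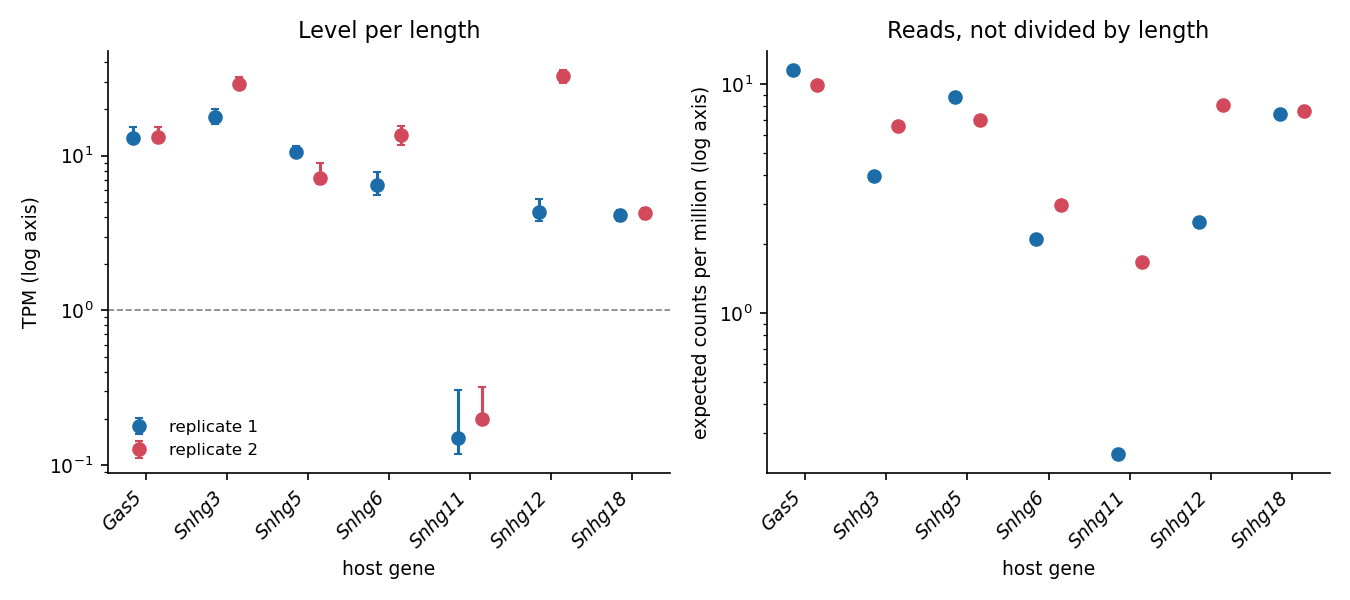
TPM (left) and CPM, expected counts scaled to the library total and not divided by length (right), of each host gene in replicate 1 (blue) and replicate 2 (red), on log axes. Bars on the left are the authors' deposited intervals, whose level is not stated, and the dashed line is 1 TPM. Snhg12 has 4.29 and 32.6 TPM, and Gas5 and Snhg18 differ little between replicates.

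The distance between replicates was then set against that of all genes, as the log2 ratio of TPM, replicate 1 over replicate 2, with a pseudocount of 0.1 and centred on the median of the 11594 genes with a mean TPM of at least 1. The ratio was -2.87 for Snhg12, -1.03 for Snhg6, -0.70 for Snhg3, 0.56 for Snhg5, -0.02 for Snhg18 and -0.00 for Gas5. A 2-fold difference was passed by 2 of 6 detected hosts, Snhg6 and Snhg12, both higher in replicate 2, against 19.0% of all genes at that level. Over the 6 the median ratio was -0.36 and the median size 0.63, against a median size of 0.40 for all such genes. The deposited intervals did not overlap between replicates for 4 of the 6 hosts (Snhg3, Snhg5, Snhg6 and Snhg12), which is near the 73.3% of all genes.

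TPM divides a gene's count by its effective length, the mean length over its transcripts weighted by their estimated shares, so the same reads can give another TPM where those shares differ. The effective length of Snhg12 was 386 nucleotides in replicate 1 and 166 in replicate 2, and it was the 1 of 6 detected hosts past a 1.5-fold change in length, against 12.6% of all genes. Snhg12 was 7.59-fold higher in replicate 2 by TPM and 3.24-fold higher by CPM, the expected count scaled to the library's total over genes without regard to length (2.50 and 8.11 CPM in replicates 1 and 2). Snhg6, with effective lengths of 214 and 145 nucleotides, was 2.10-fold higher in replicate 2 by TPM and 1.42-fold higher by CPM (2.10 and 2.97). On CPM 1 of the 6 hosts, Snhg12, passed 2-fold, against 14.5% of all genes. The median size of the log2 ratio over the 6 was 0.40 on CPM, against 0.35 for all genes at a mean of 1 TPM, a smaller gap than on TPM. The length of Snhg3 was 148 and 149 nucleotides, and its difference was nearly the same on both scales, 1.65-fold.

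Snhg11 went the other way. Its TPM values were close, 0.15 and 0.20, while its CPM were 0.243 and 1.67 in replicates 1 and 2, a 6.87-fold difference. Its effective length was 1040 nucleotides in replicate 1, where all 17 counts were assigned to the 1329-nucleotide Snhg11-205, a transcript annotated for nonsense-mediated decay. In replicate 2 it was 5576 nucleotides, and all 123 counts were assigned to the 5864-nucleotide protein-coding Snhg11-201. Its deposited TPM intervals overlapped between the replicates.

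**Figure D3:**
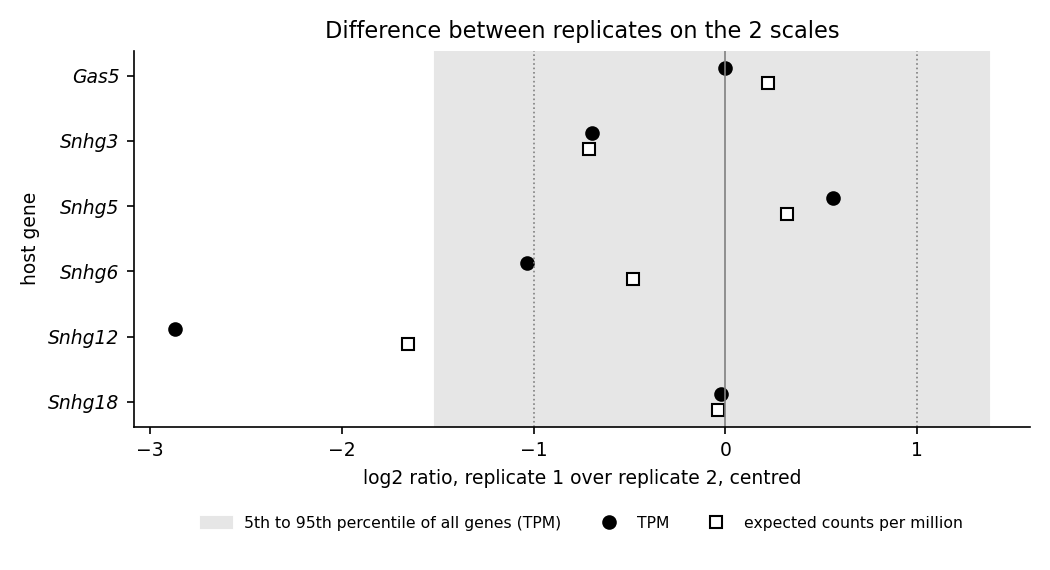
Centred log2 ratio, replicate 1 over replicate 2, of the 6 host genes with a mean of at least 1 TPM, on TPM (filled circles) and on CPM (open squares). The grey band spans the 5th to 95th percentile of all genes on TPM (-1.51 to 1.38) and the dotted lines mark 2-fold. Snhg12 lies outside the band on both scales, and Snhg6 passes 2-fold on TPM only.

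The transcripts behind these levels were examined next. The 7 hosts had 56 annotated transcripts in the tables, of which 17 had counts in both replicates, 15 in 1 replicate only and 24 in neither. By share of TPM the leading transcript differed between the replicates in 4 of the 5 detected hosts with more than 1 transcript, all but Snhg3. Across all genes with at least 2 transcripts at a mean of 1 TPM this was so for 34.0%, and for 45.1% of the genes most like these hosts in annotation and level, with at least 5 transcripts and a mean of 1 to 50 TPM. By share of expected counts the leading transcript differed in 1 of the 5, Snhg5, against 31.1% of those genes.

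Gas5 had 25 annotated transcripts, the most of any host. By TPM, the 12-exon spliced Gas5-224 led in replicate 1 with 33.1% of the gene and had 24.7% in replicate 2. The 11-exon spliced Gas5-210 had 15.3% in replicate 1 and led in replicate 2 with 31.0%. The leading retained-intron transcript by TPM in replicate 1 was Gas5-214, of 2 exons, with 26.4% against 8.41% in replicate 2, where Gas5-223 led that class with 12.6% against 3.19% in replicate 1. By counts the same transcript led in both replicates, Gas5-218, a 2556-nucleotide retained-intron form whose exons span 6 snoRNA genes, with 52.7% of the counts in replicate 1 and 31.5% in replicate 2.

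Retained-intron forms, which keep an intron in the annotated transcript, took different shares of Gas5 on the 2 scales. They held 51.6% and 44.3% of its TPM in replicates 1 and 2 (47.9 ± 5.18, SD, n = 2) and 81.2% and 72.8% of its counts (77.0 ± 5.93). Gas5 transcripts whose exons span at least 1 snoRNA held 48.4% and 42.1% of its TPM and 79.95% and 71.1% of its counts. A majority of retained-intron TPM in both replicates was found in 0 of the 2 detected hosts with such a transcript, Gas5 and Snhg5. The share was 3.19% of all genes with one. By counts Gas5 had such a majority, against 1.40% of those genes. For Snhg5 the call by counts could not be made. Its retained-intron forms held 38.8% and 0% of counts in replicates 1 and 2, and transcripts without a class 12.9% and 95.1%. Of the 25 annotated Gas5 transcripts 20 are retained-intron forms, and the share over all genes was not matched for this. Reads of an unspliced precursor cannot be told apart from retained-intron forms in the tables.

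Snhg5 also differed between replicates in its transcripts. Spliced Snhg5-202 had 54.2% of its TPM in replicate 1 and 3.68% in replicate 2. A 994-nucleotide transcript that is not in GENCODE M21, and so has no class here, had 10.2% in replicate 1 and 87.3% in replicate 2. The leading retained-intron transcript, Snhg5-204, which spans 1 snoRNA, had 25.8% in replicate 1 and 0% in replicate 2. By the deposited posterior means, a second estimate, the retained-intron class of Snhg5 had 34.9% and 5.84% and the unclassified transcripts 7.68% and 64.8%, so the size of the shift depends on the estimate.

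Snhg6 and Snhg12 had no transcript annotated as retained intron in the tables, and their shares moved among transcripts of other biotypes. Of these, Snhg12-203 and Snhg12-207 each span 1 snoRNA in an exon. Together they held 0% and 8.55% of the TPM of Snhg12 in replicates 1 and 2, from 0 and 69 counts. Snhg6-203 had 83.1% of the gene's TPM in replicate 1 and 42.5% in replicate 2, while the 400-nucleotide Snhg6-204 had 6.64% and 56.0%. In Snhg12 the 606-nucleotide Snhg12-206 had 75.7% in replicate 1 and 31.0% in replicate 2. The 364-nucleotide Snhg12-204 had 0% and 60.1%, from 0 and 165 counts, and is the shortest Snhg12 transcript with counts. The deposited lengths of 4 of the 7 Snhg12 transcripts, Snhg12-204 among them, differ from those in GENCODE M21, so whether their exons span a snoRNA was not assessed. Snhg12-206 kept a similar part of the counts, 62.1% and 59.5%.

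Snhg3 was the exception. Its 3-exon, 437-nucleotide Snhg3-204 held 100% of the gene in both replicates, from 277 and 482 counts, and the other 4 annotated transcripts had none. It was the 1 of 5 detected hosts with more than 1 transcript in which the same transcript reached 80% in both replicates, against 30.6% of all genes with at least 2 transcripts at a mean of 5 TPM.

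**Figure D4:**
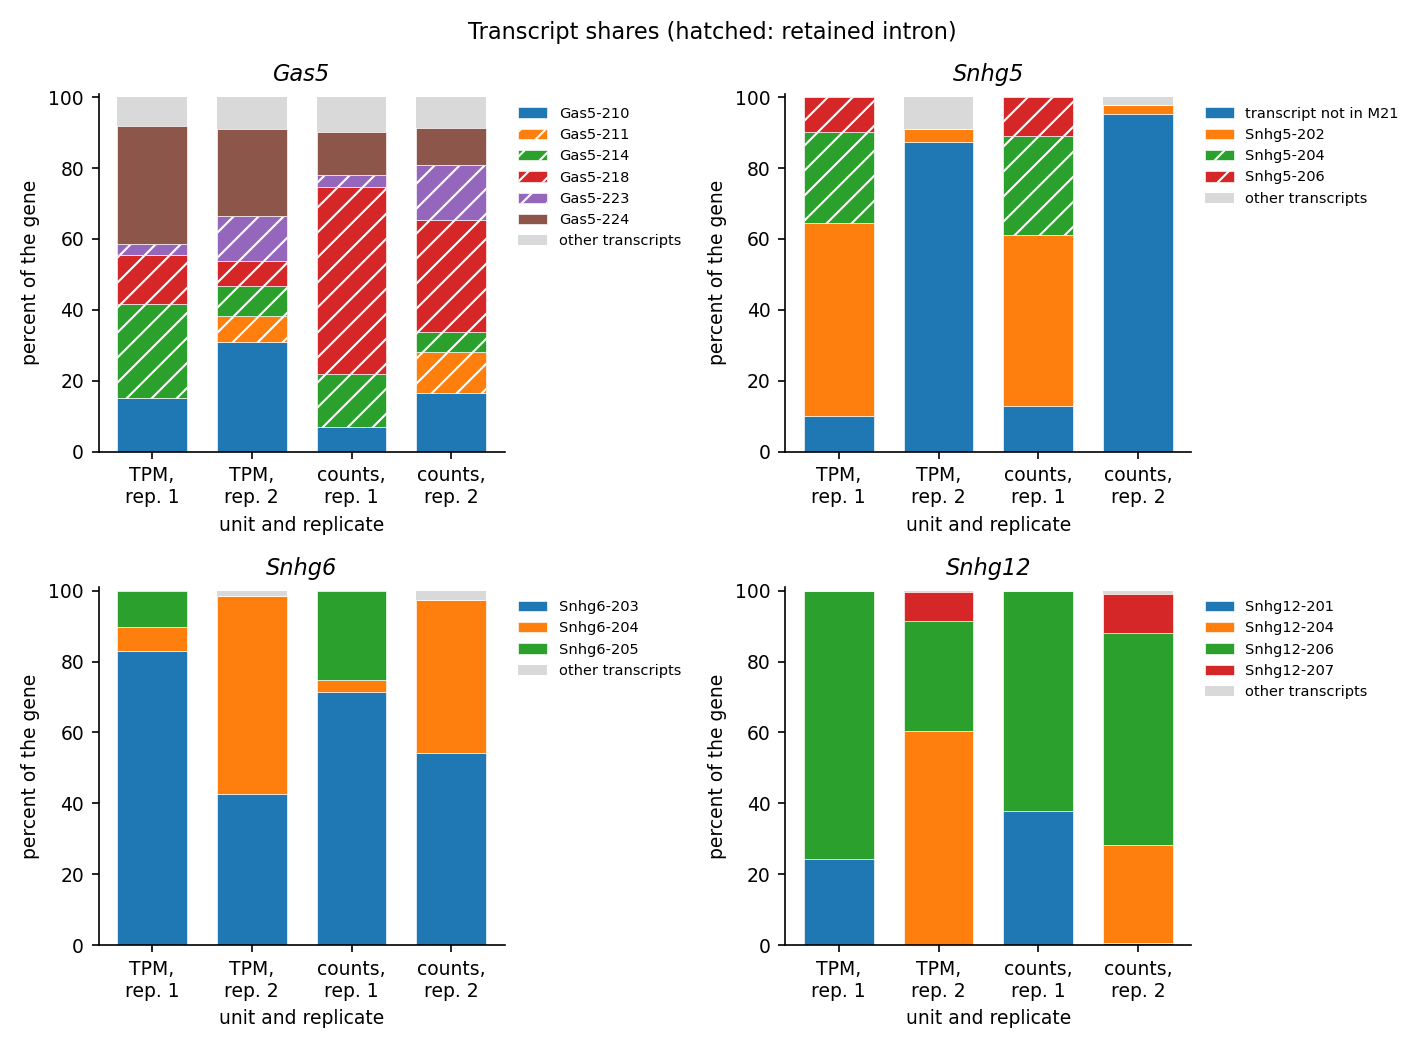
Share in percent of each gene's TPM (2 bars on the left of each panel) and expected counts (2 bars on the right) by transcript, in replicates 1 and 2, for Gas5, Snhg5, Snhg6 and Snhg12. Hatched transcripts are annotated as retained intron, and those under 10% in all 4 bars are grey. Gas5-218 is the widest band of Gas5 by counts (52.7% and 31.5%) and a narrow one by TPM.

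The snoRNAs themselves were mostly outside what the tables can measure. All 21 loci inside the 7 hosts had a row, but 19 had an effective length of 0, the length left for the start of a fragment, and 0 counts. The 2 with counts, Snora73a and Snora73b, stand against a background in which 2.69% of the 1525 snoRNA genes of the tables had any count. Those 2 are also the longest, at 205 nucleotides, just above the 200-nucleotide size limit, and the longest of the 19 without counts had 136 nucleotides. A count of 0 for a shorter snoRNA is therefore no measure of its presence.

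Snora73b had 1202 and 505 expected counts in replicates 1 and 2 and Snora73a had 280 and 192. Both had an effective length of 2.16 nucleotides in replicate 1 and 1.19 in replicate 2, so their TPM values cannot be interpreted. Only counts are used to compare the pair with its host. The counts are not adjusted for this difference in length, whose part in the values below was not tested. Summed, the pair had 21.2 and 9.47 CPM in replicates 1 and 2, a log2 ratio of 1.16, and was higher in replicate 1. The spliced host Snhg3 had 3.96 and 6.55 CPM and was higher in replicate 2, so that the pair had 5.35 and 1.45 counts for each count of the host. On CPM the direction of the summed pair was thus opposite to that of the host in these 2 libraries. Both snoRNAs have a length on the edge of the size selection, whose part in this was not tested. The deposited TPM, divided by the effective length, was 5266 and 3839 for Snora73b and 1227 and 1460 for Snora73a in replicates 1 and 2. It gave the pair no common direction, since Snora73a was higher in replicate 2. Within the listed hosts without a row of their own, the 141-nucleotide locus ENSMUSG00000088059 in the RefSeq span of Snhg4 had 0.93 and 137 counts at an effective length of 0. Snora74a, in the same span, had 0 in both.

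Many snoRNA hosts begin transcription at a C followed by pyrimidines. RefSeq promoter entries (GRCm38.p6) were found for 8 of the 10 hosts, with 9 annotated starts. The letters searched, on the strand of the gene alone, were a C at the annotated first base that opens a run of at least 5 C or T bases. Among the 9 starts, 2 matched (22.2%), against 2 of 25 for protein-coding snoRNA hosts (8%) and 2.51% of all 32851 promoters. The first 2 shares each rest on 2 matches and are given as a description. Gas5 had 2 of the starts, and its other one, with G at the first base, did not match. The matching starts, of Gas5 and Snhg8, are shown with Snhg12 and Snhg18, where a run of the same kind opens with T. Each is printed as 20 bases before the start and 30 from it, with the run at the start in capitals. The positions are chr1:161035146-161035195 (Gas5, plus strand), chr3:123508307-123508356 (Snhg8, minus strand), chr4:132308658-132308707 (Snhg12, plus strand) and chr15:32244633-32244682 (Snhg18, minus strand).
Gas5: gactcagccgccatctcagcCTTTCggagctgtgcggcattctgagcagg
Snhg8: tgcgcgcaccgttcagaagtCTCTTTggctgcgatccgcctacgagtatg
Snhg12: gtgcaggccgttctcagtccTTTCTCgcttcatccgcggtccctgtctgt
Snhg18: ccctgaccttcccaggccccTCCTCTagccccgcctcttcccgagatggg
The annotated base may differ from the start used in heart, which these libraries do not measure, so a start without a match says only that the letters were not at that base.

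The host genes were last set beside related lists of genes. As a setting for the counts below, 24.2% of all genes were detected. Of all genes at a mean of 1 TPM, 19.0% passed 2-fold on TPM and 14.5% on CPM. Among 14 other noncoding genes listed as snoRNA hosts 11 were found and 8 detected, with a median of 4.66 TPM against 10.1 TPM for the 7 hosts described here. The lists were fixed by symbol, and whether each listed gene, Meg3 and Mirg included, carries a snoRNA was not checked here. Their 4 highest were Rian (85.4 and 67.1 TPM in replicates 1 and 2) and Meg3 (25.04 and 26.3), both from the imprinted Dlk1-Dio3 cluster, Snhg20 (8.83 and 21.9) and Zfas1 (2.89 and 7.73). Rian and Meg3 were close between replicates. Zfas1 was more than 2-fold higher in replicate 2 on TPM and on CPM, and Snhg20 on TPM only (log2 ratio -1.28, and -0.67 on CPM). Of the 10 in this list at a mean of 1 TPM, 1 passed 2-fold toward replicate 1 and 3 toward replicate 2 on TPM, and 2 in each direction on CPM.

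All 36 protein-coding genes listed as snoRNA hosts were detected, with a median of 100.2 TPM, about 10 times that of the 7 hosts described here. The highest were Rps12 (866 and 906 TPM) and Rps2 (777 and 784), proteins of the small ribosomal subunit, the chaperone Hspa8 (688 and 694) and the large-subunit protein Rpl13 (640 and 719). These were level between the replicates, and 4 of the 36 passed 2-fold on TPM, 2 in each direction, but on CPM only 1 did, Rps13, toward replicate 1.

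Of 20 genes listed for snoRNA particles, their assembly or related steps of ribosome assembly 15 were detected. The C/D core protein Snu13 led with 46.8 and 41.9 TPM, followed by the H/ACA core protein Nop10 (32.5 and 25.3), the assembly helicase Ruvbl2 (23.9 and 16.2) and the C/D core protein Nop56 (12.4 and 13.5), itself a host gene. Of the 17 in this list at a mean of 1 TPM, 4 passed 2-fold toward replicate 1 and 3 toward replicate 2 on TPM. On CPM 3 and 2 did. Of 17 genes of nonsense-mediated decay 16 were detected, led by Eif4a3 of the exon junction complex (40.7 and 41.6 TPM), the decay factor Smg5 (15.9 and 14.4) and the exon junction protein Magoh (7.52 and 16.3). Of all 17 decay genes, 1 passed 2-fold on TPM, Magoh, toward replicate 2, and 3 did on CPM, all toward replicate 2.

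All 12 genes of the control of 5′ terminal pyrimidine mRNAs were detected. They were led by Eif4ebp1 (158 and 134 TPM), a repressor of cap-dependent translation, and the RNA-binding Cnbp (77.4 and 59.1), Pabpc1 (19.8 and 19.5) and Tia1 (7.68 and 19.99). On TPM 1 passed 2-fold toward replicate 1 and 2 toward replicate 2, and on CPM 0 of the 12 did.

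**Figure D5:**
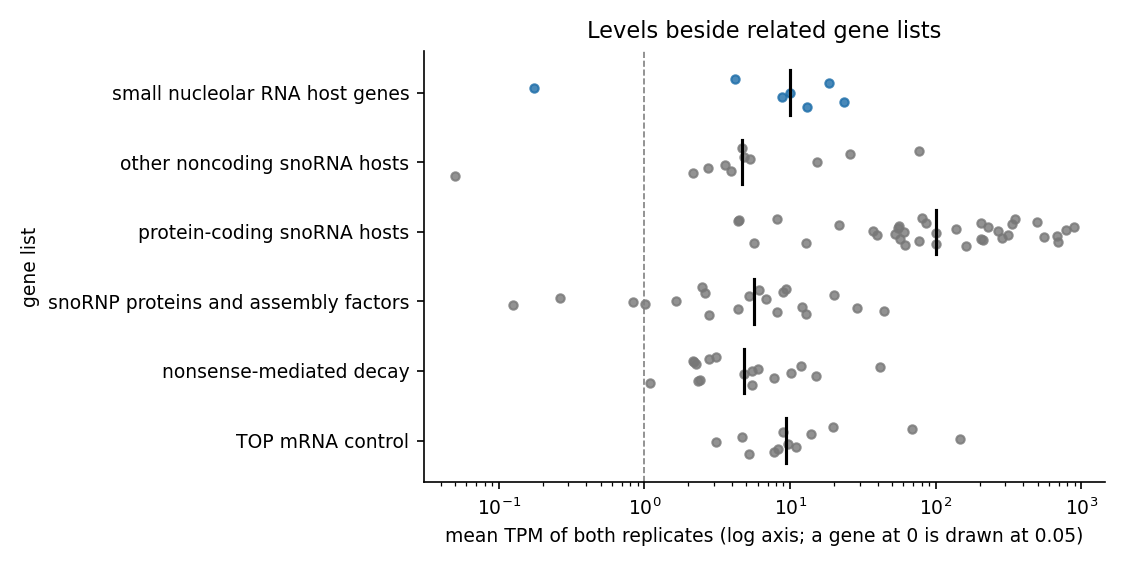
Mean TPM of both replicates (log axis) for each gene of the 7 host genes (blue) and of 5 related lists (grey), with a black bar at each median. The dashed line is 1 TPM, and Snhg11, at 0.175 TPM, is the only host described here to its left.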

How the data were processed

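The files held per-gene and per-transcript estimates for 2 samples. Per the labels, libraries were made from ribosomal RNA-depleted RNA above 200 nucleotides, and the deposited notes name mm10 and GENCODE M4. The columns carry RSEM's names, with aligner and program versions not given in the sources used here. Expected counts were deposited as estimated fragments, unscaled. In the TPM values the authors deposited, each count is divided by an effective length and then scaled to a fixed total, and the deposited FPKM values are scaled by length and depth. The deposited transcript percent is the share of a gene's TPM. The level of the deposited intervals is not stated.

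Spike-ins, phiX and numeric identifiers were left out. Names came from GENCODE M21 (42462 genes matched by identifier) and 151 of 154 list symbols were found. CPM is the expected count scaled to the sum over genes. Ratios used a pseudocount of 0.1 and median centring. The ratio was also run on simulated libraries with counting noise only and the same effective lengths in both. Spread between replicates and changes in effective length were therefore not covered by it. For TMM scaling, edgeR 4.0.16 (R 4.3.3) was given rounded expected counts. Python 3.11.15 with pandas 2.3.3 did the rest. Sequences came from GENCODE transcripts and RefSeq promoters, and box letters and start runs were searched by script.

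The host genes, lists and thresholds were chosen with earlier results of these data known. Named genes were all listed hosts, their leading and leading retained-intron transcripts, snoRNAs with counts, and the 4 highest of each related list. The rule also covered the 4 highest markers of each cell type, which are given as sums or counts only, with those at 0. A few genes that the rule names are not reported here. Whether reads were counted by strand is not stated. No p-value was computed, since 1 group with 2 replicates allows no comparison of conditions.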

Additional observations from a re-analysis of the deposited data

How the results depend on the processing

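Of 43 recomputed summary values 35 kept their call, which for counts means within 1.5 times. Detected hosts numbered 4 instead of 6 at a limit of 5 TPM, which counts as kept. The summed TPM was kept when within 1 SD of the mean. With 2 replicates that always holds when either is left out, so those values (100.2 and 56.2 TPM) could not lose the call. Hosts past 2-fold numbered 1 instead of 2 with a pseudocount of 1 and with CPM. For Snhg6 alone the call was lost, with log2 ratios of -0.95 and -0.48, and no other single-gene ratio lost or reversed its call. Rescaled over protein-coding and long noncoding nuclear genes, the summed TPM was 289.9. Hosts with a retained-intron majority numbered 1 by counts instead of 0, and 0 or 1 when a replicate was left out. In these numbers the transcripts of Snhg5 without a class were taken as not retained. Over the 6 hosts with more than 1 transcript, the undetected Snhg11 included, those with 1 transcript at 80% numbered 3 when either replicate was left out, instead of 1, because agreement between replicates was then not required. Hosts whose leading transcript differed, an alternative chosen after seeing the data, numbered 1 by counts instead of 4. No paired analysis was possible because there was 1 group. With 2 libraries, a difference between replicates has no further library to check it. Short snoRNAs were not measurable here.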
